A study of Mus musculus with 7 samples.

Results

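The genes described here are 10 genes switched on by Wnt signalling or marking the hepatocytes around the central vein of the liver lobule, chosen by name: the Wnt feedback and response genes Axin2, Rnf43, Znrf3, Lgr5 and Tbx3, and the central-vein hepatocyte genes Glul, Oat, Cyp2e1, Cyp1a2 and Slc22a3. All 10 were found among the 24421 gene symbols of the count table, and all 10 passed the filter on low counts that left 13638 genes for testing. Their transcripts were counted in livers of 36-week-old C57BL/6 mice by sequencing of poly(A) RNA, 4 animals being labelled PrkciffAlbcre and 3 Prkciff. PrkciffAlbcre mice carry floxed alleles of Prkci, the atypical protein kinase C lambda/iota, together with Alb-Cre, a recombinase driven by the albumin promoter and so active in hepatocytes, while Prkciff mice carry the floxed alleles alone. Both groups had been injected intraperitoneally with the hepatocarcinogen diethylnitrosamine (DEN) at 25 mg/kg when 2 weeks old and were fed a diet with 60% fat from 4 weeks of age, for 32 weeks. The labels give the tissue as liver and do not say whether a piece held tumour.

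In the liver lobule, blood flows from the portal tract to the central vein, and hepatocytes differ along that path. Endothelial cells of the central vein secrete Wnt2, Wnt9b and the R-spondin Rspo3, which stabilise beta-catenin in the neighbouring hepatocytes. Beta-catenin with TCF/LEF factors then drives glutamine synthesis, several cytochromes P450 and a set of feedback genes that dampen the signal. In mouse liver, Glul is restricted to the innermost rim of hepatocytes, and liver tumours with activated beta-catenin are known for high Glul.

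Depth allowed every one of the 10 genes to be counted with at least 77 reads in each library. Reads assigned to genes came to 28695455 to 49203615 in PrkciffAlbcre libraries and 23807580 to 26556486 in Prkciff libraries, and levels are given as CPM, read counts brought to a common library size with TMM factors. Prkci itself was at 28.2 to 30.7 CPM in PrkciffAlbcre and 20.4 to 27.7 CPM in Prkciff livers, and because its reads can also come from exons that Cre leaves in place, it does not check the genotype, so each direction below rests on the labels. Prkciff 3 stood apart from the other controls: the summed level of 28 acute phase genes was 45400 to 55400 CPM in PrkciffAlbcre livers and 45700 CPM in Prkciff 3, but 204000 and 199000 CPM in Prkciff 1 and 2. The 8 measured hepatocyte markers (Alb, Apoa1, Apob, Ttr, Ahsg, Hnf4a, Tat and Fgb, the last also an acute phase gene) summed to 65800 to 81200 CPM in PrkciffAlbcre and 86000 to 135000 CPM in Prkciff livers, with 0 of 8 past the test described below. In bulk tissue, fewer cells of a type and less RNA per cell cannot be told apart.

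Of the 10 genes, 1 passed the test for genotype, Slc22a3, which rose in PrkciffAlbcre livers, and 0 fell. The test was edgeR's quasi-likelihood F test with Benjamini-Hochberg adjustment over all 13638 genes and a threshold of 0.05, which 2.21% of all genes passed, 1.26% higher and 0.953% lower. Slc22a3 and Oat were the members whose groups did not overlap, both higher in PrkciffAlbcre; groups failed to overlap in 16.2% of all genes tested, 8.62% higher and 7.63% lower. At an unadjusted p under 0.05, where 18% of all genes lay, 2 members were higher (Oat and Slc22a3) and 3 lower (Lgr5, Tbx3 and Cyp2e1). The median log2 fold change of the 10 was -0.14, beside -0.0083 for all genes tested.

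**Figure D1:**
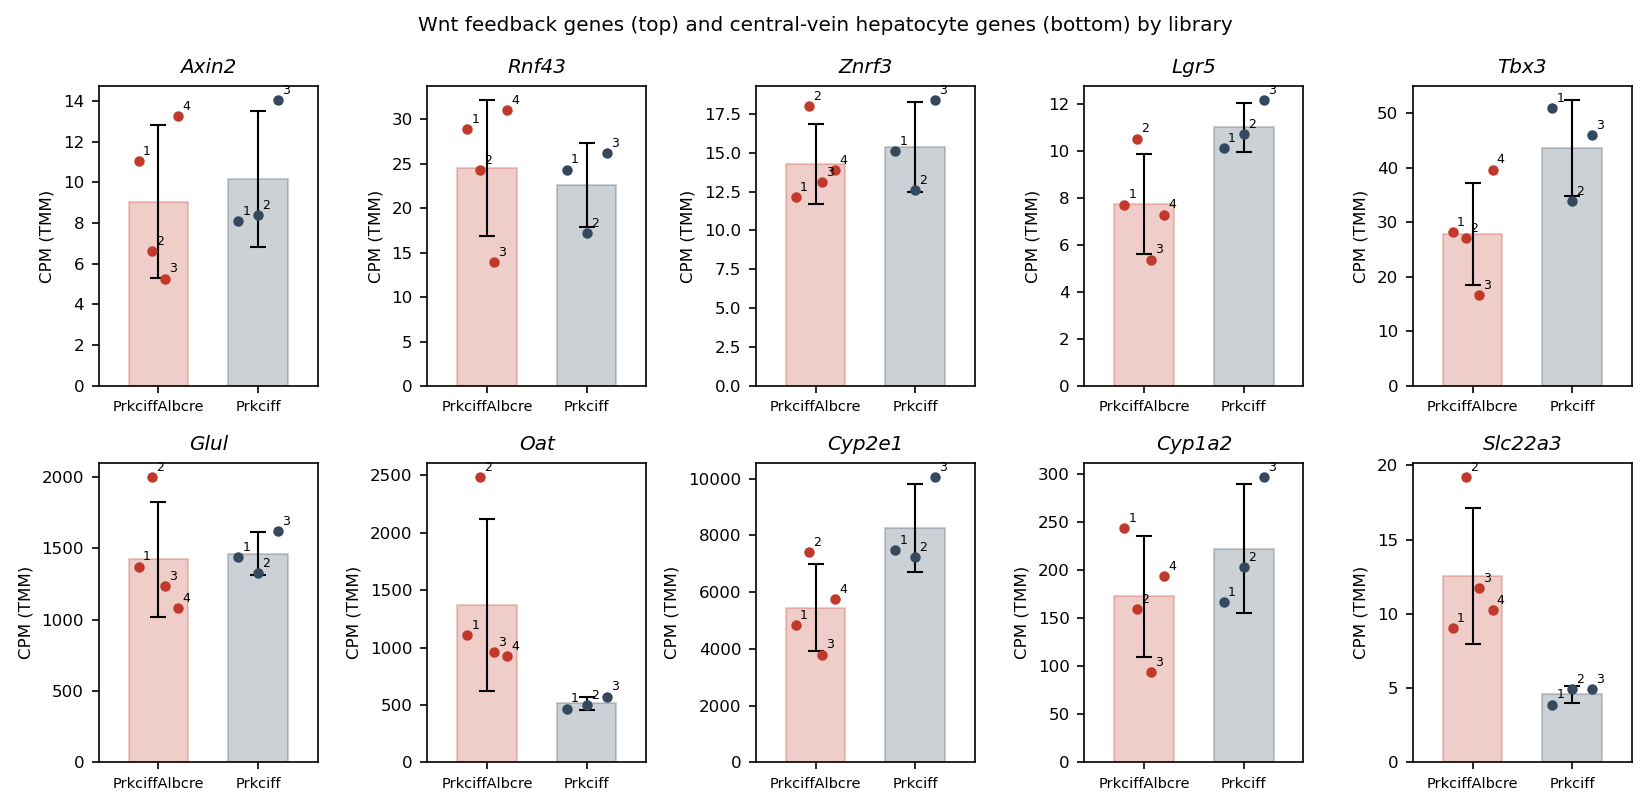
Level of each gene in TMM-scaled CPM (linear axes from 0), with 1 point per library numbered by its replicate, bars at the group mean and error bars of 1 SD, for 4 PrkciffAlbcre and 3 Prkciff libraries. Slc22a3 and Oat lie above every Prkciff library in all 4 PrkciffAlbcre libraries, while the groups of the other 8 genes overlap.

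Because Slc22a3 and Oat were higher in every PrkciffAlbcre liver while Glul and Cyp2e1 overlapped between the groups, the 250 bases before the start of these 4 genes are shown, read from RefSeq on GRCm38.p6 and counted from the RefSeq start. The gene bounds given further on are those of GENCODE, whose Cyp2e1 and Cyp1a2 genes begin upstream of the RefSeq start, so the last part of those windows, with the TATA box, lies inside the GENCODE gene. Capitals mark CTTTGA on either strand (TCAAAG on the other), the core of the motif that TCF/LEF factors bind.

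Slc22a3, chr17:12507705-12507954, minus strand: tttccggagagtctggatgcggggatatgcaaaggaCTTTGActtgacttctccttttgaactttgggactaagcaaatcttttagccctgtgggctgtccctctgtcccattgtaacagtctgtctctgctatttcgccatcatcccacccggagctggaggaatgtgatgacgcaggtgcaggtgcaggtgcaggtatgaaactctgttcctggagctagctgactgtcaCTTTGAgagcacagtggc
Oat, chr7:132576399-132576648, minus strand: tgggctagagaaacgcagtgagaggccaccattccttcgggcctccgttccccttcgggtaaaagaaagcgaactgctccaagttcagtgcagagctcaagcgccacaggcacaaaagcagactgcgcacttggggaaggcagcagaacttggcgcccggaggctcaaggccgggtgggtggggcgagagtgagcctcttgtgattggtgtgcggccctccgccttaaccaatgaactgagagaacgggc
Cyp2e1, chr7:140763569-140763818, plus strand: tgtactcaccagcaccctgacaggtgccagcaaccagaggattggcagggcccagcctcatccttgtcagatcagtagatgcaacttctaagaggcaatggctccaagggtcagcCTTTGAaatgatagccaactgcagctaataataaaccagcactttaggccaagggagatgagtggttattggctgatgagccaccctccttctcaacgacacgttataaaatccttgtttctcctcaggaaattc
Glul, chr1:153899679-153899928, plus strand: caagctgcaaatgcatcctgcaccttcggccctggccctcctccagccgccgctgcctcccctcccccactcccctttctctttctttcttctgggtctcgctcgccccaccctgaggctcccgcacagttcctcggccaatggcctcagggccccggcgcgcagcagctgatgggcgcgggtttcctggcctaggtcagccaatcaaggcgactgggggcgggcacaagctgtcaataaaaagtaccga

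The Slc22a3 window holds the core 2 times, beginning at positions -214 and -18 counted back from the start, and the Cyp2e1 window holds it 1 time, at -135. No match was found in the Oat and Glul windows. The core occurs in 13.8% of the 32851 promoter windows of this length in the RefSeq table, so a match is common. The longer form CTTTGAT, found in 3.21% of windows, was in none of the 8 windows available for the members, which cover 7 of the 10 genes. Among the members' other windows, Cyp1a2 has TCAAAG at -243, and Axin2 and Rnf43 have no match. Both Rnf43 windows lie wholly inside its GENCODE gene, which begins further upstream. A TATA box (TATAAA or its complement, in 12.4% of windows) begins at -31 in Cyp2e1 and at -29 in Cyp1a2 and was not found in the Slc22a3, Oat and Glul windows. Neither GTTAAT, part of the site of the hepatocyte factor HNF1 (6.43% of windows), nor CAAAGTCCA, a direct repeat of the kind bound by HNF4A (0.384%), occurred in the members' windows on either strand, and no motif overlapped another. The Slc22a3 and Cyp2e1 windows contain 51.2% and 48.8% G and C, and the Oat and Glul windows 60.0% and 64.8%. These are matches of letters chosen after the sequences and levels had been seen, and binding was not measured.

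Slc22a3 encodes the organic cation transporter OCT3, a carrier of monoamines and other cations across the cell membrane. It lies on chromosome 17 from 12418960 to 12507704 on the minus strand (ENSMUSG00000023828.3, protein coding, GENCODE M21 on GRCm38). Its level was 9.05, 19.2, 11.7 and 10.2 CPM in PrkciffAlbcre 1 to 4 and 3.90, 4.92 and 4.91 CPM in Prkciff 1 to 3. The lowest PrkciffAlbcre liver was thus above the highest Prkciff liver, and PrkciffAlbcre 2 stood highest. Slc22a3 averaged 12.6 ± 4.58 CPM in PrkciffAlbcre (SD, n = 4) and 4.58 ± 0.590 CPM in Prkciff livers (SD, n = 3). This was 2.74-fold, or 1.45 on the log2 scale with an SE of 0.27, and passed (edgeR adjusted p = 0.0287). The call was lost without PrkciffAlbcre 3 (edgeR adjusted p = 0.0791), PrkciffAlbcre 4 (0.0661), Prkciff 1 (0.126) or Prkciff 2 (0.117). The log2 fold change stayed between 1.35 and 1.54 in these fits, and was 1.35 with Prkciff 3 as the lone control.

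Slc22a3 overlaps Plg, the plasminogen gene, on the opposite strand over 420 of its 4513 exon bases. Plg was at 2340 ± 200 CPM in PrkciffAlbcre (SD, n = 4) and 3880 ± 1220 CPM in Prkciff livers (SD, n = 3), with a log2 fold change of -0.73 (edgeR adjusted p = 0.144). The libraries were strand-specific but the sources used here do not say whether the counting used strand, so the part of Plg reads in the Slc22a3 count was not tested. The mean of Plg was higher in the group where Slc22a3 was lower. Among markers of other liver cells, 8 stellate and fibroblast markers summed to 286 to 431 CPM in PrkciffAlbcre and 227 to 375 CPM in Prkciff livers, 8 cholangiocyte markers to 154 to 342 CPM and 63.8 to 230 CPM, and 8 macrophage markers to 298 to 917 CPM and 563 to 1050 CPM. These sums overlapped, whereas the 13 endothelial markers, at 526 to 678 CPM and 681 to 761 CPM, did not. Within the stellate list the collagen genes did not overlap either, being higher in PrkciffAlbcre, and neither did Lrat, which was lower. Col1a1 was at 55.5, 21.2, 48.7 and 37.6 CPM in PrkciffAlbcre 1 to 4 and at 3.14, 5.25 and 11.4 CPM in Prkciff 1 to 3 (log2 fold change 2.61, edgeR adjusted p = 0.0726). Col3a1 was at 129, 57.1, 124 and 88.1 CPM in PrkciffAlbcre and at 12.4, 23.4 and 32.3 CPM in Prkciff livers (2.13, edgeR adjusted p = 0.0632). For both collagens PrkciffAlbcre 2, the highest liver for Slc22a3, was the lowest of its group. Lrat was at 8.24, 8.51, 6.05 and 8.87 CPM in PrkciffAlbcre 1 to 4 and at 10.6, 14.2 and 18.2 CPM in Prkciff 1 to 3 (log2 fold change -0.855, edgeR adjusted p = 0.062). Of the rest of the stellate list, Reln, Dcn and Des had log2 fold changes below 0 and Pdgfrb and Acta2 above 0. None of these lists had a marker at 0 in every library or past the threshold, and their part in the Slc22a3 difference was not tested.

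Among the other organic cation transporters, 4 of 7 were tested and 0 passed, with a median log2 fold change of -0.0008. Slc47a1, the MATE1 exporter of cations into bile, was at 111 ± 11.7 CPM in PrkciffAlbcre (SD, n = 4) and 89.9 ± 32.6 CPM in Prkciff livers (SD, n = 3), with a log2 fold change of 0.30 (edgeR adjusted p = 0.517). Slc22a2, the renal transporter OCT2, had 0 reads in all 7 libraries.

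Oat encodes ornithine aminotransferase, a mitochondrial enzyme that passes the amino group of ornithine on to form glutamate, the substrate of glutamine synthetase. The gene runs from base 132557478 to 132576398 of chromosome 7, minus strand (ENSMUSG00000030934.9). It was measured at 1111, 2487, 959 and 923 CPM in PrkciffAlbcre 1 to 4 and at 468, 500 and 573 CPM in Prkciff 1 to 3. Every PrkciffAlbcre liver was above every Prkciff liver, and PrkciffAlbcre 2 was more than 2 times the other 3. With means of 1370 ± 749 CPM in PrkciffAlbcre (SD, n = 4) and 514 ± 53.8 CPM in Prkciff livers (SD, n = 3), it differed by 1.41 on the log2 scale (SE 0.36, 95% interval 0.59 to 2.24), which did not pass (edgeR adjusted p = 0.0838). Without PrkciffAlbcre 2 it did, at a smaller log2 fold change of 0.96 (edgeR adjusted p = 0.0197), and it also passed DESeq2 (adjusted p = 0.0392). Prkciff 3 as the lone control gave 1.26 (edgeR adjusted p = 0.601).

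Glul encodes glutamine synthetase, which binds the ammonia left over from the urea cycle into glutamine. It is found at bases 153899944 to 153909723 of chromosome 1, plus strand (ENSMUSG00000026473.15). Its levels were 1372, 2001, 1237 and 1081 CPM in PrkciffAlbcre 1 to 4, against 1440, 1328 and 1621 CPM in Prkciff 1 to 3. PrkciffAlbcre 2 was the highest and PrkciffAlbcre 4 the lowest of all 7 livers, so the control range fell inside the PrkciffAlbcre range. The log2 fold change was -0.04 (SE 0.22, edgeR adjusted p = 0.949), with a 95% interval of -0.54 to 0.45.

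Reads per kilobase of exon allow levels to be compared between genes. On that scale Oat exceeded Glul in 4 of 4 PrkciffAlbcre livers, at a ratio of 1.14, 1.75, 1.09 and 1.20, and in 0 of 3 Prkciff livers, at 0.458, 0.530 and 0.498. This ratio is taken within a library and is free of scaling factors, but whether it exceeds 1 depends on the exon lengths used. In reads not divided by length, it was 0.81, 1.24, 0.775 and 0.855 in PrkciffAlbcre 1 to 4. In Prkciff 1 to 3 that ratio was 0.325, 0.377 and 0.354, again without overlap. The read ratio of Slc22a3 to Glul, per kilobase, was 0.00485, 0.00708, 0.00697 and 0.00698 in PrkciffAlbcre livers and 0.00199, 0.00273 and 0.00223 in Prkciff livers, so PrkciffAlbcre 2, which stands apart in the levels of both genes, did not stand apart in their ratio. The ratios were picked after the levels were seen and carry no test.

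**Figure D2:**
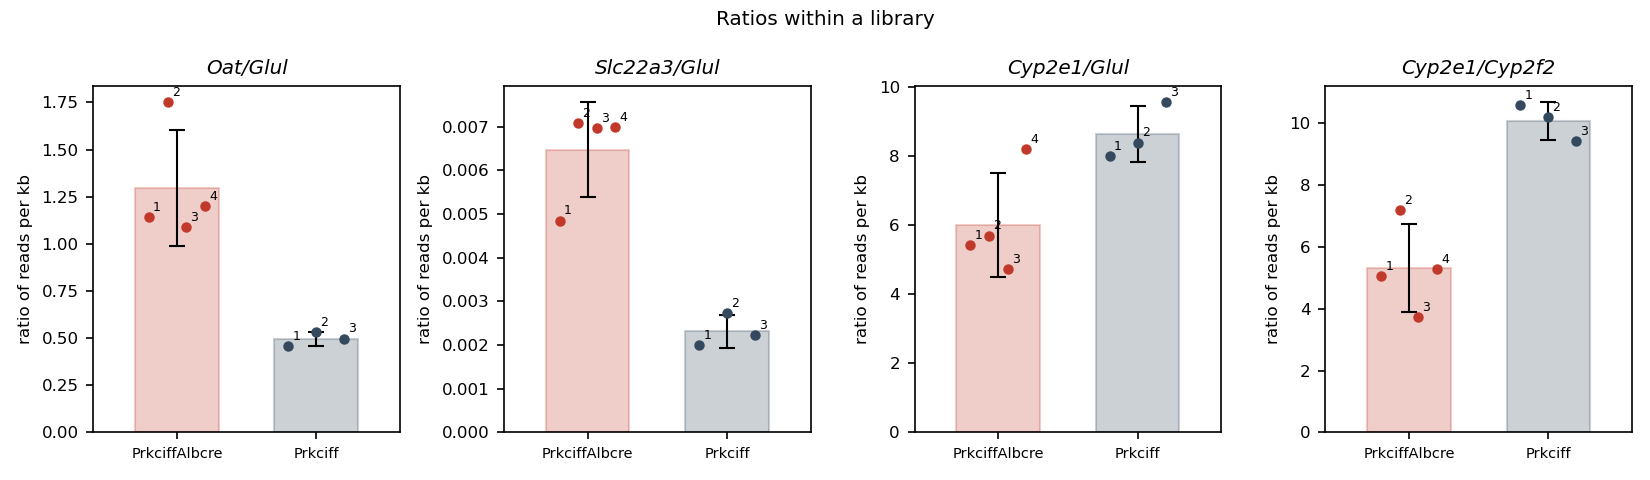
Ratios of reads per kilobase of exon between pairs of genes within each library (linear axes from 0), with numbered points for libraries, bars at the group mean and error bars of 1 SD (4 PrkciffAlbcre, 3 Prkciff). Oat/Glul and Slc22a3/Glul are higher and Cyp2e1/Cyp2f2 lower in every PrkciffAlbcre library than in any Prkciff library, whereas Cyp2e1/Glul overlaps.

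Cyp2e1 encodes the cytochrome P450 that oxidises ethanol and small toxicants and that activates DEN. It occupies chromosome 7 from 140763739 to 140774987 on the plus strand (ENSMUSG00000025479.9) and took 0.405% to 0.792% of all gene-assigned reads in PrkciffAlbcre and 0.620% to 1.07% in Prkciff libraries. Cyp2e1 stood at 4843, 7412, 3798 and 5757 CPM in PrkciffAlbcre 1 to 4 and at 7484, 7250 and 10070 CPM in Prkciff 1 to 3. PrkciffAlbcre 2 lay between Prkciff 1 and 2, and the other 3 PrkciffAlbcre livers lay below all Prkciff livers. Cyp2e1 averaged 5453 ± 1532 CPM in PrkciffAlbcre (SD, n = 4) and 8268 ± 1565 CPM in Prkciff livers (SD, n = 3). On the log2 scale the difference was -0.60 (SE 0.26, 95% interval -1.18 to -0.02) and did not pass (edgeR adjusted p = 0.263). Prkciff 3 as the lone control moved it to -0.89 (edgeR adjusted p = 0.361).

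Set against Cyp2f2, a cytochrome P450 of periportal hepatocytes, Cyp2e1 separated the groups. The ratio of their reads per kilobase was 5.05, 7.19, 3.73 and 5.28 in PrkciffAlbcre livers and 10.6, 10.2 and 9.42 in Prkciff livers, so Prkciff 3 did not stand apart from the other controls here. Cyp2f2 alone was at 900, 968, 956 and 1020 CPM in PrkciffAlbcre 1 to 4 and at 661, 666 and 1000 CPM in Prkciff 1 to 3 (log2 fold change 0.31, edgeR adjusted p = 0.407). It was picked after the levels were seen from 24 periportal genes, of which 18 were above and 6 below 0. Arg1, of the same list, was at 953, 1470, 1040 and 992 CPM in PrkciffAlbcre 1 to 4 and at 1590, 1440 and 786 CPM in Prkciff 1 to 3. Whether Cyp2e1 separates the groups against other periportal genes was not tested.

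Cyp1a2, the P450 that metabolises caffeine and aromatic amines and is induced by the aryl hydrocarbon receptor, lies on chromosome 9 from 57676937 to 57683703 on the minus strand (ENSMUSG00000032310.4). It was at 244, 160, 94.4 and 194 CPM in PrkciffAlbcre 1 to 4, and at 167, 204 and 298 CPM in Prkciff 1 to 3. The groups overlapped broadly, with PrkciffAlbcre 3 lowest and Prkciff 3 highest. The log2 fold change of -0.36 (SE 0.33, 95% interval -1.13 to 0.40) did not pass (edgeR adjusted p = 0.620). Prkciff 3 as the lone control gave -0.79, and leaving out Prkciff 3 gave -0.10.

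The aryl hydrocarbon receptor genes showed 0 of 7 tested past the threshold, with 4 above and 3 below 0 and a median of 0.26. Ahr, the receptor, was at 53.2 ± 8.33 CPM in PrkciffAlbcre (SD, n = 4) and 55.9 ± 9.83 CPM in Prkciff livers (SD, n = 3), and Arnt, its partner, at 42.6 ± 1.20 and 48.6 ± 4.20 CPM (edgeR adjusted p = 0.851 and 0.320). The groups did not overlap for Nqo1, a quinone reductase that NRF2 also induces, or for Cyp1b1, a further P450 of this receptor, both higher in PrkciffAlbcre and neither past the threshold. Nqo1 was at 27.4, 10.2, 11.1 and 19.6 CPM in PrkciffAlbcre 1 to 4 and at 4.4, 5.16 and 6.12 CPM in Prkciff 1 to 3 (log2 fold change 1.70, edgeR adjusted p = 0.058). Cyp1b1 was at 6.58, 3.78, 4.68 and 2.66 CPM in PrkciffAlbcre and at 1.82, 2.49 and 2.42 CPM in Prkciff livers (0.98, edgeR adjusted p = 0.152). Tiparp, of the same list, had a lower mean in PrkciffAlbcre, with overlap. Its levels were 12.4, 9.23, 11.1 and 9.79 CPM in PrkciffAlbcre and 19.5, 15 and 9.9 CPM in Prkciff livers (-0.47, edgeR adjusted p = 0.287). Cyp1a1, the neighbour of Cyp1a2 and the other classical target, stayed at 0.266 to 1.91 CPM in PrkciffAlbcre and 0.455 to 0.676 CPM in Prkciff livers.

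Per kilobase of exon, the feedback genes were counted far less than the metabolic ones. In PrkciffAlbcre livers the mean level in CPM per kilobase was 2530 ± 710 for Cyp2e1, 580 ± 317 for Oat, 428 ± 121 for Glul and 86.0 ± 31.2 for Cyp1a2 (SD, n = 4). It was 4.21 ± 1.42 for Tbx3, 3.74 ± 1.16 for Rnf43, 2.78 ± 1.02 for Slc22a3, 1.81 ± 0.327 for Znrf3, 1.64 ± 0.680 for Axin2 and 0.751 ± 0.207 for Lgr5. Mean ± SD overlapped for Oat and Glul, and for each pair of neighbours in the run Tbx3, Rnf43, Slc22a3, Znrf3 and Axin2. The genes share libraries, and within each PrkciffAlbcre library Oat exceeded Glul per kilobase, as given above. Prkciff livers ranked Cyp2e1 (3830 CPM per kilobase), Glul (440), Oat (218), Cyp1a2 (111), Tbx3 (6.58), Rnf43 (3.44), Znrf3 (1.95), Axin2 (1.85), Lgr5 (1.07) and Slc22a3 (1.01). There Znrf3 and Axin2, with SDs of 0.366 and 0.607, and Lgr5 and Slc22a3, with SDs of 0.101 and 0.131, did not differ beyond their spread.

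Axin2 is a scaffold of the complex that degrades beta-catenin and the most widely used readout of Wnt signalling. It lies on chromosome 11 from 108920349 to 108950783 on the plus strand (ENSMUSG00000000142.15). Its levels were 11.1, 6.62, 5.27 and 13.3 CPM in PrkciffAlbcre 1 to 4 and 8.10, 8.39 and 14.0 CPM in Prkciff 1 to 3. PrkciffAlbcre 1 and 4 lay above Prkciff 1 and 2, and PrkciffAlbcre 2 and 3 below them. The log2 fold change was -0.17 (SE 0.34, edgeR adjusted p = 0.844), with a 95% interval of -0.96 to 0.62. It came to 0.13 without Prkciff 3 and to -0.63 with Prkciff 3 as the lone control, neither past the threshold (edgeR adjusted p = 0.866 and 0.675).

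Rnf43 and Znrf3 encode membrane ubiquitin ligases that remove Frizzled receptors from the cell surface. Rnf43 (chromosome 11, 87662722 to 87735539, plus strand) was at 28.9, 24.3, 13.9 and 31.1 CPM in PrkciffAlbcre 1 to 4 and at 24.3, 17.2 and 26.2 CPM in Prkciff 1 to 3. Znrf3 (chromosome 11, 5276324 to 5444847, minus strand) was at 12.2, 18.0, 13.1 and 13.9 CPM in PrkciffAlbcre livers and at 15.1, 12.6 and 18.4 CPM in Prkciff livers. The Rnf43 range of Prkciff livers lay inside that of PrkciffAlbcre livers, while for Znrf3 the ranges overlapped in part, with PrkciffAlbcre 1 lowest and Prkciff 3 highest. Their log2 fold changes were 0.12 (SE 0.27) and -0.11 (SE 0.18), with edgeR adjusted p of 0.862 and 0.802 and 95% intervals of -0.50 to 0.74 and -0.50 to 0.29.

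Lgr5 is a receptor for R-spondins, which bind it together with the RNF43 and ZNRF3 ligases and so raise Wnt receptor levels. The gene lies on chromosome 10 from 115450311 to 115587780 on the minus strand (ENSMUSG00000020140.15). It was counted at 7.70, 10.5, 5.36 and 7.28 CPM in PrkciffAlbcre 1 to 4 and at 10.1, 10.7 and 12.1 CPM in Prkciff 1 to 3. PrkciffAlbcre 2 was the single liver of its group within the Prkciff range. The log2 fold change was -0.51 (SE 0.21, 95% interval -0.99 to -0.03) and did not pass (edgeR adjusted p = 0.248).

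Tbx3, a T-box transcription factor that is a beta-catenin target in liver, was at 28.2, 27.1, 16.7 and 39.7 CPM in PrkciffAlbcre 1 to 4, against 51.0, 33.9 and 46.0 CPM in Prkciff 1 to 3. It lies on chromosome 5 from 119670669 to 119684724 on the plus strand (ENSMUSG00000018604.18). PrkciffAlbcre 4 was above Prkciff 2, and the other 3 PrkciffAlbcre livers were below every Prkciff liver. With a log2 fold change of -0.64 (SE 0.27, 95% interval -1.27 to -0.01) it did not pass (edgeR adjusted p = 0.268).

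**Figure D3:**
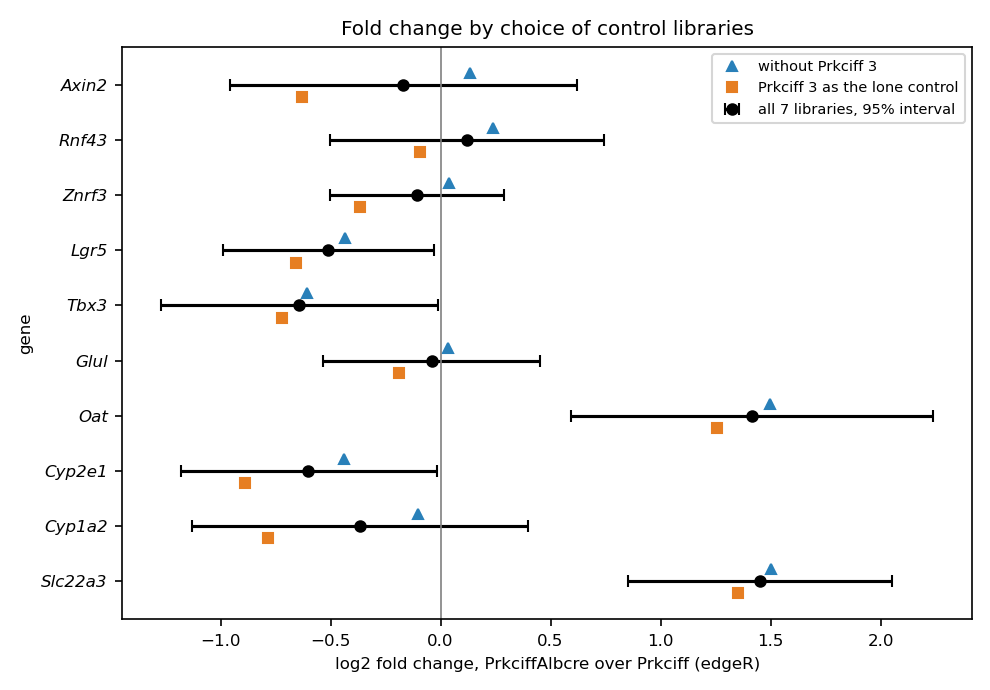
Log2 fold change of PrkciffAlbcre over Prkciff for each gene from edgeR, with its 95% interval over all 7 libraries (black) and the estimate without Prkciff 3 (triangles) or with Prkciff 3 as the lone control (squares). Oat and Slc22a3 stay above 1.2 in all 3 estimates, while Axin2, Rnf43, Znrf3 and Glul fall on both sides of 0.

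The estimate for each of the 10 genes was lower with Prkciff 3 as the lone control than with Prkciff 3 left out. Prkciff 3 was the highest Prkciff liver for 8 of the 10 genes, all but Tbx3 and Slc22a3, whereas it was the highest for 37.8% of all genes tested. Relative to the mean of Prkciff 1 and 2 it was higher by a log2 difference of 0.77 for Axin2, 0.68 for Cyp1a2, 0.45 for Cyp2e1 and 0.41 for Znrf3, and by 0.12 to 0.34 for the other 6. Against Prkciff 3 alone, all 4 PrkciffAlbcre livers were lower for Axin2, Znrf3, Lgr5, Tbx3, Cyp2e1 and Cyp1a2, and all 4 were higher for Oat and Slc22a3. The summed acute phase level was low in Prkciff 3 and high in Prkciff 1 and 2, as given above, and its part in these differences was not tested.

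Among the PrkciffAlbcre livers, PrkciffAlbcre 2 was highest for 6 of the 10 genes, namely Znrf3, Lgr5, Glul, Oat, Cyp2e1 and Slc22a3, beside 23.6% of all genes tested. PrkciffAlbcre 3 was lowest for 6, namely Axin2, Rnf43, Lgr5, Tbx3, Cyp2e1 and Cyp1a2, beside 26.4% of all genes. PrkciffAlbcre 4 was highest for Axin2, Rnf43 and Tbx3 and lowest for Glul and Oat. PrkciffAlbcre 1 was next to highest for both Glul and Axin2.

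**Figure D4:**
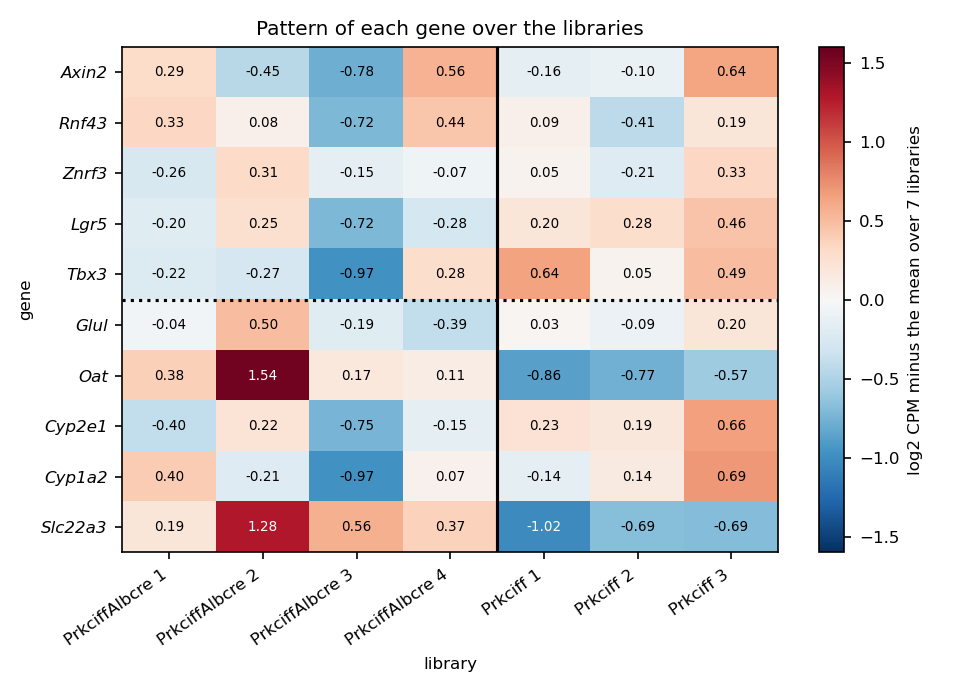
Log2 CPM of each gene (rows) in each library (columns) minus the gene's mean over the 7 libraries, with the value in each cell and a colour scale from -1.6 to 1.6. Oat and Slc22a3 share a pattern with PrkciffAlbcre 2 highest (1.54 and 1.28), and PrkciffAlbcre 3 is low for Axin2, Rnf43, Lgr5, Tbx3, Cyp2e1 and Cyp1a2.

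Likeness of the members' patterns over the 7 libraries was measured as the root mean square difference of log2 levels after each gene was centred and scaled to unit SD, so that 0 is the same pattern. By that measure the closest pairs were Lgr5 with Cyp2e1 (0.259 SD), Oat with Slc22a3 (0.276 SD) and Axin2 with Cyp1a2 (0.458 SD). Rnf43, Znrf3, Tbx3 and Glul had no other member nearer than 0.616 SD, and the most distant pair was Tbx3 with Slc22a3 (1.70 SD). Outside the members, among 9543 genes with a mean of at least 5 CPM, Slc22a3 was most like Amt (0.140 SD) and Slc16a5 (0.171 SD). Amt, a subunit of the glycine cleavage system, varied over a narrow range, 48.9 to 52.7 CPM in PrkciffAlbcre and 42.5 to 43.8 CPM in Prkciff livers.

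Slc16a5, a member of the monocarboxylate transporter family, was at 32.3, 64.4, 34.5 and 36.5 CPM in PrkciffAlbcre 1 to 4 and at 14.6, 14.5 and 14.1 CPM in Prkciff 1 to 3. It rose with a log2 fold change of 1.54 (edgeR adjusted p = 0.0241). Slc16a5 was picked for its likeness to Slc22a3, so the shared direction follows from that choice. The call was lost without PrkciffAlbcre 3 (edgeR adjusted p = 0.0587), PrkciffAlbcre 4 (0.0647), Prkciff 1 or Prkciff 2 (0.110 each). The genes most like Glul were Yod1 (0.164 SD), Hyal1 (0.191 SD) and Arsg (0.210 SD), and those most like Axin2 were Foxk1 (0.186 SD), Id2 (0.232 SD) and Kat2b (0.269 SD). None of these 6 passed the test (edgeR adjusted p from 0.789 to 0.909).

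The Wnt ligands offered no member past the threshold among 7 tested of 14, with a median log2 fold change of -0.32. Wnt2, made by endothelial cells around the central vein and in the sinusoids, was at 2.80, 3.43, 3.14 and 2.73 CPM in PrkciffAlbcre 1 to 4 and at 5.06, 4.36 and 4.13 CPM in Prkciff 1 to 3. The groups did not overlap, and the log2 fold change was -0.58 (SE 0.21, edgeR adjusted p = 0.179). Wnt9b, the other central vein Wnt, was at 1.79, 1.99, 3.21 and 0.522 CPM against 1.16, 1.64 and 1.53 CPM, and Rspo3 at 8.91, 6.57, 5.99 and 7.18 CPM against 5.62, 6.56 and 10 CPM, in PrkciffAlbcre and Prkciff livers in turn (edgeR adjusted p = 0.765 and 0.937). Wnt5b, another Wnt ligand, was at 8.71 ± 0.922 CPM in PrkciffAlbcre (SD, n = 4) and 10.9 ± 3.63 CPM in Prkciff livers (SD, n = 3).

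The markers of central vein and sinusoidal endothelium, whose sums are given above and did not overlap, had a median log2 fold change of -0.16. Of these, 0 of 13 passed the threshold, and they went in both directions. Selp was at 7.5 to 10.2 CPM in PrkciffAlbcre and 3.95 to 5.62 CPM in Prkciff livers (0.82, edgeR adjusted p = 0.062). Kdr was at 46.5 to 72.4 and 84.6 to 102 CPM (-0.55, edgeR adjusted p = 0.0862). Cdh13 and Thbd were also above 0, and the rest of the list was below 0. The part of these markers in the Wnt2 difference was not tested.

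Of 10 tested Wnt receptors and co-receptors, 0 passed and the median was -0.16. Lrp6 and Lrp5, the co-receptors, were at 103 ± 9.99 and 94.4 ± 9.34 CPM in PrkciffAlbcre (SD, n = 4) and at 115 ± 7.81 and 106 ± 19.9 CPM in Prkciff livers (SD, n = 3). Lgr4, the R-spondin receptor found throughout the lobule, was at 64.3, 70.0, 52.4 and 53.7 CPM in PrkciffAlbcre 1 to 4 and at 108, 123 and 75.3 CPM in Prkciff 1 to 3. The groups did not overlap, and it narrowly missed the threshold (log2 fold change -0.77, SE 0.17, edgeR adjusted p = 0.0540), which it passed without Prkciff 3 (-0.95, edgeR adjusted p = 0.0020) or without PrkciffAlbcre 2 (-0.85, edgeR adjusted p = 0.0404). With Prkciff 3 as the lone control it was at -0.33 (edgeR adjusted p = 0.533).

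Among 20 signal transduction genes tested, 1 passed the threshold, and the median was 0.05. Ctnnb1, which encodes beta-catenin, was at 289 ± 16.3 CPM (SD, n = 4) and 318 ± 16.8 CPM (SD, n = 3) in PrkciffAlbcre and Prkciff livers (log2 fold change -0.14, edgeR adjusted p = 0.567). The gene that passed was Tcf7, a TCF/LEF transcription factor also known from T cells, at 4.00, 2.87, 2.78 and 3.26 CPM in PrkciffAlbcre 1 to 4 and 5.72, 8.35 and 6.27 CPM in Prkciff 1 to 3. It fell by 1.07 on the log2 scale (SE 0.22, edgeR adjusted p = 0.0403), a call that among the 7 leave-one-out fits stood only without Prkciff 3 (edgeR adjusted p from 0.0212 to 0.178). Cd3e, a T cell marker, was at 0.729 to 1.21 CPM in PrkciffAlbcre and 0.759 to 1.42 CPM in Prkciff livers. Cd3g, another such marker, was at 0.785 to 1.07 CPM in PrkciffAlbcre livers. In Prkciff 1 to 3 Cd3g was at 1.06, 2.2 and 0.285 CPM. The part of T cells in the Tcf7 difference was not tested. Tcf7l2, the TCF factor most studied in hepatocytes, was at 22.5 ± 1.41 and 22.7 ± 4.04 CPM in the same order.

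Among secreted and membrane antagonists 6 of 13 genes in the file could be tested, and 0 rose and 1 fell. Of the 6, 3 were above and 3 below 0, with a median of 0.26. At an unadjusted edgeR p under 0.05, 2 were higher and 2 lower. Wif1, which binds Wnt proteins outside the cell, was at 0, 0.160, 0.164 and 0 CPM in PrkciffAlbcre 1 to 4 and at 5.82, 5.11 and 0.961 CPM in Prkciff 1 to 3. Prkciff 3 was thus much nearer the PrkciffAlbcre livers than the other controls were. The log2 fold change was -5.70 (SE 1.03, edgeR adjusted p = 0.0334), a fitted value that depends on how 0 counts are handled, and it was -3.61 with Prkciff 3 as the lone control (edgeR adjusted p = 0.434). Leaving out 1 library at a time kept the call in 2 of 7 fits, without PrkciffAlbcre 2 or Prkciff 3 (edgeR adjusted p from 0.00352 to 0.122). Notum, a beta-catenin target that inactivates Wnt proteins, was at 21.2 ± 4.12 CPM in PrkciffAlbcre (SD, n = 4) and 24.2 ± 5.31 CPM in Prkciff livers (SD, n = 3).

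Of 12 further Wnt targets tested, Tcf7 was again the single gene past the threshold, and the median was 0.07. Nkd1, an intracellular inhibitor, and Sp5, a transcription factor, both sensitive reporters of the pathway, were at 6.35 ± 1.91 and 2.18 ± 0.562 CPM in PrkciffAlbcre (SD, n = 4) and at 5.22 ± 1.90 and 1.58 ± 1.37 CPM in Prkciff livers (SD, n = 3). Ccnd1 and Myc, growth genes with many other inputs, were at 62.8 ± 20.3 and 8.96 ± 2.78 CPM against 43.6 ± 16.4 and 5.50 ± 1.61 CPM. None of these 4 passed (edgeR adjusted p from 0.238 to 0.726).

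**Figure D5:**
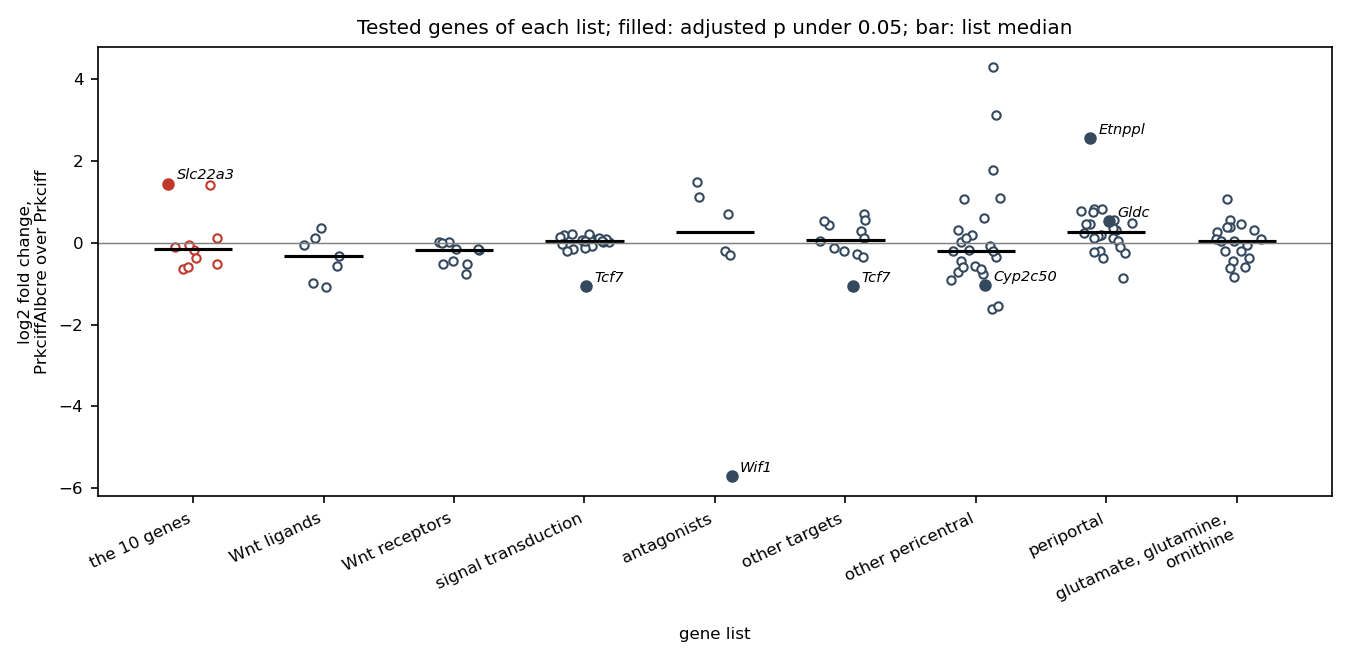
Log2 fold change of PrkciffAlbcre over Prkciff for the tested genes of each list (points, filled where the edgeR adjusted p is under 0.05) with the list median (bar). Past the threshold are Slc22a3, Tcf7 (in the transduction and the other target lists), Wif1, Cyp2c50, Etnppl and Gldc.

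Other pericentral genes spread in both directions. All 25 of that list were tested, 0 rose and 1 fell, with 10 above and 15 below 0 and a median of -0.19. The gene that fell was Cyp2c50, a cytochrome P450 whose close paralogs make its own level uncertain, at 190, 214, 133 and 230 CPM in PrkciffAlbcre 1 to 4 and 304, 364 and 507 CPM in Prkciff 1 to 3. It fell by 1.03 on the log2 scale (SE 0.22, edgeR adjusted p = 0.0454), and leaving out 1 library at a time it passed only without Prkciff 3 (edgeR adjusted p from 0.0359 to 0.147). Its pattern over the libraries differed from that of Cyp2e1 by 0.377 SD and from that of Glul by 1.13 SD.

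Rhbg and Lhpp lay closest to Oat and Slc22a3 among the 25. Rhbg, an ammonium transporter of pericentral hepatocytes, was at 7.94, 19.1, 10.8 and 11.6 CPM in PrkciffAlbcre 1 to 4 and at 5.26, 5.63 and 6.80 CPM in Prkciff 1 to 3. Lhpp, a phosphohistidine phosphatase, was at 45.0, 118, 58.0 and 42.3 CPM and at 31.6, 24.9 and 34.9 CPM in the same order. Both were higher in 4 of 4 PrkciffAlbcre livers than in any Prkciff liver, with PrkciffAlbcre 2 highest, and neither passed (edgeR adjusted p = 0.0835 and 0.218). Their patterns differed from that of Slc22a3 by 0.244 SD and 0.386 SD. Rhbg and Lhpp were named for this likeness, so their shared direction follows from that choice. Slc1a2, the glutamate transporter of the same innermost cells, was instead at 140, 375, 139 and 135 CPM against 242, 282 and 286 CPM, with PrkciffAlbcre 2 above and the other 3 below all Prkciff livers. Other genes of this list without overlap went both ways, none of them past the threshold. Gulo, Cyp27a1, Cyp2c37 and Cyp2c54 were lower in PrkciffAlbcre livers, and Cyp2a5, Cyp3a11 and Gstm3 were higher.

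Enzymes and carriers of glutamate, glutamine and ornithine had 0 of 19 tested past the threshold and a median of 0.05. Slc38a3, the glutamine carrier SNAT3, was at 944, 1200, 797 and 1180 CPM in PrkciffAlbcre 1 to 4 and at 1880, 2260 and 1390 CPM in Prkciff 1 to 3, without overlap (log2 fold change -0.84, SE 0.22, edgeR adjusted p = 0.0776). Arg1, the arginase that yields the ornithine used by Oat, was at 1110 ± 242 CPM in PrkciffAlbcre (SD, n = 4) and 1270 ± 428 CPM in Prkciff livers (SD, n = 3). Glud1, glutamate dehydrogenase, was at 1070 ± 69.2 and 1100 ± 120 CPM in the same order (edgeR adjusted p = 0.753 and 0.901 for the pair).

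Periportal genes, at the other end of the lobule, had 2 of 24 higher and 0 lower past the threshold, with 18 of 24 above 0 and a median of 0.27. Etnppl, an ethanolamine phosphate phospholyase, was at 101, 151, 96.0 and 116 CPM in PrkciffAlbcre 1 to 4 and at 16.8, 18.7 and 23.8 CPM in Prkciff 1 to 3, with PrkciffAlbcre 2 again highest. It rose by 2.56 on the log2 scale (SE 0.19, edgeR adjusted p = 0.0013) and passed in all 7 leave-one-out fits (edgeR adjusted p from 0.000113 to 0.0183). Gldc, the decarboxylase of the glycine cleavage system, was at 259, 251, 284 and 288 CPM against 203, 179 and 179 CPM (log2 fold change 0.53, edgeR adjusted p = 0.0437), and passed in 2 of those 7 fits, without PrkciffAlbcre 2 or Prkciff 3.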

How the data were processed

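Liver RNA of 4 PrkciffAlbcre and 3 Prkciff mice was sequenced from strand-specific poly(A) libraries, single-end over 75 nt, per the labels' protocols. The authors deposited read counts per gene symbol, not normalized, in 1 table. The submitters' processing notes list STAR, DESeq2 and mm10 but no roles or versions, and which program counted the reads, on which annotation and with what strand setting, is not given in the sources used here. The entries for reads in no feature (8.62% to 16.3% of a library) and ambiguous reads (0.433% to 0.575%) stayed out.

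Counts were tested with edgeR 4.0.16 in R 4.3.3: filterByExpr (minimum count 10), TMM factors, robust glmQLFit and the quasi-likelihood F test (two-sided), adjusted by Benjamini-Hochberg over all 13638 genes. SEs are the log2 fold change over the root of F, and 95% intervals follow from them. The fit was tested on simulated counts with known changes. Libraries of 1 group all differed by more than sampling noise (the smallest chi-square was 36.7 per degree of freedom), and p-values reflect only how much these 7 samples vary.

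The members and gene lists were chosen with earlier results of these data known. Named beyond the members were list genes past the threshold (at most 4 a direction), otherwise the 2 most abundant, the central vein ligands and, for Glul, Axin2 and Slc22a3, the 3 genes of most similar pattern. For 2 genes chosen this way no result is given here. Other genes named (Lgr4, Rhbg, Lhpp, Slc1a2, Glud1, Ctnnb1, Tcf7l2, Notum, Nkd1, Sp5, Ccnd1, Myc, Cyp1a1, Nqo1, Cyp1b1, Tiparp, Gulo, Cyp27a1, Cyp2c37, Cyp2c54, Cyp2a5, Cyp3a11, Gstm3, Col1a1, Col3a1, Lrat, Reln, Dcn, Des, Pdgfrb, Acta2, Selp, Cdh13, Thbd, Kdr, Cyp2f2, Slc22a2, Plg, Cd3e and Cd3g) were chosen after their values were seen. Gene models and exon lengths came from GENCODE M21 on GRCm38, the assembly of mm10, and promoter sequences from RefSeq on GRCm38.p6. Alternatives were RLE factors, DESeq2 1.42.0, other filters, no robust estimation, a replicate block, each library left out and Prkciff 3 as the lone control; no scaling factors was added after the data were seen.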

Additional observations from a re-analysis of the deposited data

Results flagged for a closer look

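Oat in PrkciffAlbcre 2, at 2487 CPM, stood far from the other 3 PrkciffAlbcre livers, which lay between 923 and 1111 CPM. Its gap to the nearest of them was 0.880 of the group's range, above Dixon's critical value at 95% for 4 samples, which chance alone exceeds in about 1 of 20 groups, and 10 genes were examined. Groups of 3 were not examined in this way.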

How the results depend on the processing

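Over all genes, 302 passed (172 higher, 130 lower). The count was 1119 with DESeq2, 74 with the replicate block, 9 with Prkciff 3 as the lone control and 498 (418 higher, 80 lower) with no scaling factors, and from 31 to 1310 when each library was left out. It was 304 with RLE factors, 383 with no filter, 300 with the 1 CPM filter and 310 without robust estimation. Among the 10 genes, 1 passed; 2 passed with DESeq2 and with no scaling factors (Oat and Slc22a3), 0 with the replicate block, 0 with Prkciff 3 as the lone control, and from 0 to 2 when each library was left out. No scaling factors moved the median of all genes to 0.22; relative to it, Slc22a3 was at 1.45 and Oat at 1.41. Deviations from the group means in same-numbered libraries had correlations across genes of -0.0525, 0.0803 and -0.137. Libraries of different number had correlations from -0.173 to 0.237. The labels do not say that a shared number marks a litter or batch, and with so few libraries these correlations cannot decide it. Under the replicate block Slc22a3 had a log2 fold change of 1.48 (edgeR adjusted p = 0.0541).

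Directions turned for genes near 0. With the replicate block, Rnf43 was at -0.049 and Glul at 0.043. With Prkciff 3 as the lone control, which is assumed to vary like the PrkciffAlbcre livers, Rnf43 was at -0.10, Wnt5b at 0.27, Lrp5 at 0.18, Ahr at 0.22, Arg1 at 0.50 and Slc47a1 at -0.17. With no scaling factors, Axin2 was at 0.026, Znrf3 at 0.11, Glul at 0.18, Rspo3 at 0.15, Lrp6 at 0.067, Lrp5 at 0.086, Ahr at 0.18, Arnt at 0.054 and Arg1 at 0.083. In that fit the median of all genes was 0.22. Relative to it, Axin2 was at -0.197, Znrf3 at -0.118 and Glul at -0.044, the directions of the main fit. Leaving out each library gave -0.41 to 0.13 for Axin2, -0.040 to 0.31 for Rnf43, -0.24 to 0.040 for Znrf3, -0.25 to 0.072 for Glul, -0.21 to 0.23 for Rspo3, -0.20 to 0.053 for Ahr and -0.0081 to 0.68 for Wnt9b. Slc22a3 and Oat kept their direction in all 15 alternatives, at 1.17 to 1.67 and 0.96 to 1.63, and passed in 9 and 3 of them. Wif1 gave no value under the 1 CPM filter. The cause of these shifts was not tested. Lgr5, Tbx3 and Cyp2e1 had 95% intervals that exclude 0 and did not pass after adjustment over all genes.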
